A study of Mus musculus with 6 samples.

Results

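The Nr4a orphan nuclear receptors are 3 related transcription factors, Nr4a1 (Nur77), Nr4a2 (Nurr1) and Nr4a3 (Nor1), and all 3 were found by gene symbol among the 13734 genes of the deposited table. Poly(A) RNA came from adipocytes made in culture from 1 immortalized mouse line of white subcutaneous preadipocytes. Every culture carried Dicer1 flox/flox alleles with Cre-ERT2, a Cre recombinase that tamoxifen activates, and had been differentiated with insulin, rosiglitazone, T3, IBMX, dexamethasone and indomethacin. On day 6, the 3 DICER_KO cultures received 10 µM 4-hydroxytamoxifen (4-OHT) for 48 h to delete the gene of the RNase that makes mature microRNAs, and the 3 control cultures received ethanol. All 6 cultures were then stimulated with 10 µM isoproterenol, a beta-adrenergic agonist, for 6 h. Differences between the groups therefore describe stimulated cells, the induction of a gene by isoproterenol is not measured here, and effects of the deletion and of 4-OHT cannot be told apart. The labels call the libraries biological replicates but do not say whether they came from separately differentiated cultures. A p-value here therefore rests on library-to-library spread, which may be technical.

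Nr4a receptors are immediate-early genes. Cyclic AMP made after beta-adrenergic stimulation activates protein kinase A, which phosphorylates the transcription factor CREB, and CREB with its CRTC coactivators switches on Nr4a transcription within minutes to hours. The proteins have a ligand-binding domain without a usable pocket, so their activity is set largely by how much protein is made. They bind the element called NBRE as monomers, and Nr4a1 and Nr4a2 also pair with the retinoid X receptors. In metabolic tissues the family is known for transient induction by catecholamines and for control of glucose and lipid genes.

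The start-site regions of the 3 genes are shown because the family is known for induction through CREB. Each is 300 bases of RefSeq (GRCm38.p6), from 250 bases before an annotated start to 50 after it. A single start per gene was used, the first listed. Capitals mark TGACG on either strand, the half-site of the cyclic AMP response element to which CREB binds. The Nr4a1 region is chr15:101266596-101266895 on the plus strand, the Nr4a2 region chr2:57123954-57124253 on the minus strand and the Nr4a3 region chr4:48045055-48045354 on the plus strand. The Nr4a1 region lies wholly inside the gene's span (chr15:101253902-101274795), so the start used is not its most upstream one. Other starts were not searched.
Nr4a1: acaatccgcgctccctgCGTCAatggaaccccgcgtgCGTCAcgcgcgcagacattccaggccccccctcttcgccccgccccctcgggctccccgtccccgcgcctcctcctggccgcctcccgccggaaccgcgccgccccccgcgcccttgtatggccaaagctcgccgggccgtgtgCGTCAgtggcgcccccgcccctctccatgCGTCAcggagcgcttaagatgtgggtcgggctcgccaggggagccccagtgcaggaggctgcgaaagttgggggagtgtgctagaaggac
Nr4a2: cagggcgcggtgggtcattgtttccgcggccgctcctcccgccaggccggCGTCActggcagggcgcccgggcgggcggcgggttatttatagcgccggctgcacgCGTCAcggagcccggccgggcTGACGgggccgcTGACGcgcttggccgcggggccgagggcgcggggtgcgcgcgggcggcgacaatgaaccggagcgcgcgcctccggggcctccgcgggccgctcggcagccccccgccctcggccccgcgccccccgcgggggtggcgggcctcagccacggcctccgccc
Nr4a3: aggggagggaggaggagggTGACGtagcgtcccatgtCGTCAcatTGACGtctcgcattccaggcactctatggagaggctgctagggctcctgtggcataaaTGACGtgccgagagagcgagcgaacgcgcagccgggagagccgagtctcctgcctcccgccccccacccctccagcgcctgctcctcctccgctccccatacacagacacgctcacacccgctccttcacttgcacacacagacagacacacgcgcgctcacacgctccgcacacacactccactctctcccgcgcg

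Each of the 3 regions held 4 copies of the half-site. At least 1 copy was found in 21.0% of 27025 start-site regions of the same length, and 4 or more in 0.252% of them. The 4 copies of Nr4a1 were all on the minus strand, at offsets of -233, -213, -69 and -40 bases from the start used, while Nr4a2 and Nr4a3 carried copies on both strands. None of the 3 held the full palindrome TGACGTCA, which occurred in 1.88% of regions and contains the half-site on each strand, or the NBRE letters AAAGGTCA, which occurred in 1.46%. These matches are letters in a window and say nothing of binding.

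The adipocyte identity of the cultures and the level of Dicer1 were checked first. Dicer1 stood at 6.14, 6.09 and 6.14 log2 CPM in controls 1 to 3 and at 5.43, 5.46 and 5.49 in DICER_KO. The groups did not overlap, an order that 9.81% of all genes had, and Dicer1 RNA was lower but still present (difference -0.66, limma adjusted p = 0.015). Its adjusted p rose to between 0.0568 and 0.147 without the intensity trend, with a replicate block, and without any 1 library other than DICER_KO replicate 3. All 12 adipocyte markers were in the table, and their summed level was 7667 to 9641 CPM in controls, 12506 and 12334 CPM in DICER_KO replicates 1 and 2, and 3807 CPM in DICER_KO replicate 3, which stood apart. Fabp4 and Lpl weigh most in that sum, with control means of 11.82 and 11.33 log2 CPM. In DICER_KO replicates 1 and 2, Lpl (-0.21 and -0.38) and Cd36 (-0.24 and -0.07) lay below the control mean, and the other markers above it. In replicate 3 all 12 lay below it. Preadipocyte and fibroblast markers (11 of 12 in the table) summed to 7847 to 8988 CPM in controls and 4373 to 5424 CPM in DICER_KO, while Dpp4 and Lum stayed under 1 CPM in every library. Col1a1, Col3a1 and Dcn, with differences of -0.70, -1.44 and -0.81, carry most of that sum, and Col3a1 had a limma adjusted p of 0.00856. These genes and Thy1 (difference -0.46) lay below the controls in each DICER_KO library, 4 of 9 tested where 9.81% of all genes did. Without DICER_KO replicate 3 these 4 of the 9 were called lower and 0 higher, where 7.22% and 12.5% of all genes were. Thy1 had a limma adjusted p of 0.0179 in that fit. Pdgfra, Pdgfrb, Cd34, Ly6a and Dlk1 overlapped between groups (differences of -0.06 to 0.29), and the median of the 9 tested markers was -0.06. Macrophage markers (4 of 8) summed to 23.5 to 28.2 CPM in controls and 28.5 to 31.7 CPM in DICER_KO, with Lyz2 and Fcer1g under 1 CPM; endothelial markers (4 of 5) summed to 4.85 to 6.00 and 6.20 to 8.07 CPM, with Pecam1 and Cdh5 under 1 CPM. The endothelial genes tested went opposite ways. Tek differed by 0.67 (0.675 without DICER_KO replicate 3, limma adjusted p = 0.0194). It lay above the controls in each DICER_KO library, an order that 10.4% of all genes had. Kdr differed by -1.40 (-2.07 without DICER_KO replicate 3, limma adjusted p = 0.013). Its groups overlapped, and its levels were low, from -2.82 log2 CPM in DICER_KO replicate 1 to 0.58 in control 3. Smooth muscle and pericyte markers (5 of 5) summed to 430.0 to 567.2 CPM in controls and 350.2 to 444.2 CPM in DICER_KO, with Myh11 and Rgs5 under 1 CPM. The part of these marker levels in the results below was not tested, and in bulk RNA fewer cells of a type and less RNA per cell cannot be told apart. Reads on the table's genes ran from 13569034 to 30268077 per library.

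Nr4a1 was lower in all DICER_KO libraries. Nr4a1 (Entrez 15370; GRCm38 chr15:101253902-101274795) is the family member best known for induction by catecholamines in fat and muscle. Its controls read 4.85, 5.04 and 4.76 log2 CPM, from 676, 744 and 623 reads. DICER_KO replicates 1 to 3 read 3.57, 3.64 and 3.95, from 208, 302 and 653 reads. The groups did not overlap, and the DICER_KO library nearest to the controls was replicate 3, the one with low adipocyte markers. On a linear scale the means were 29.6 ± 2.96 CPM in controls and 13.2 ± 1.93 CPM in DICER_KO (SD, n = 3).

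The limma estimate for Nr4a1 was a fall by 1.16 on the log2 CPM scale (SE 0.14, adjusted p = 0.00856), to 0.447 of the control level with a 95% interval of 0.360 to 0.553. Of the 3 members only Nr4a1 was called lower (adjusted p under 0.05), where 0.288% of the 10054 genes tested were, and 0 members were called higher, where 0.149% of genes were. Its adjusted p ranked 4 from the smallest over all genes tested, where equal values share a rank. Col3a1 had the same adjusted p and a smaller unadjusted limma p (4.74e-06 against 5.78e-06). The call was lost without control replicate 2 (adjusted p = 0.0524) and without control replicate 3 (adjusted p = 0.0786), while the difference stayed between -1.28 and -1.09 whichever library was left out.

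Nr4a3 was also below the controls in each DICER_KO library, but its libraries were further apart. Nr4a3 (Entrez 18124; chr4:48045078-48086447) is the family member known for its response in muscle and vascular cells. Controls read 3.88, 3.70 and 3.96 log2 CPM, from 346, 294 and 357 reads. DICER_KO replicates 1 to 3 read 3.41, 3.22 and 2.34, from 186, 225 and 214 reads. Here replicate 3 was the lowest library, the reverse of its place for Nr4a1.

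The difference for Nr4a3 was -0.86 on the log2 CPM scale (SE 0.24, 95% interval -1.39 to -0.32), and it missed the threshold in limma over all genes (adjusted p = 0.154; unadjusted p = 0.00478). Without DICER_KO replicate 3 the gene fell by 0.54 (SE 0.14, adjusted p = 0.0138). In that fit 7.22% of all genes tested were called lower and 12.5% higher, and Nr4a1 and Nr4a3 were the members called, both lower. Only DICER_KO replicates 1 and 2 set the DICER_KO mean and spread of that fit.

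Nr4a2 showed no such separation. Nr4a2 (Entrez 18227; chr2:57106830-57124003) is best known for its role in dopaminergic neurons. Its span overlaps LOC105244150 (chr2:57123334-57124694), which is not among the genes analysed, and since the counting strand is not given in the sources used here, reads of the overlap cannot be told apart. Controls read 3.01, 2.66 and 2.89 log2 CPM, from 189, 143 and 170 reads, and DICER_KO read 2.78, 2.56 and 2.86, from 120, 143 and 307 reads. All 3 DICER_KO values lay below the highest control and only replicate 2 lay below every control. The difference was -0.12 (SE 0.16, limma adjusted p = 0.713), and its 95% interval, from 0.717 to 1.18 of the control level, covers both a loss and a small gain.

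**Figure D1:**
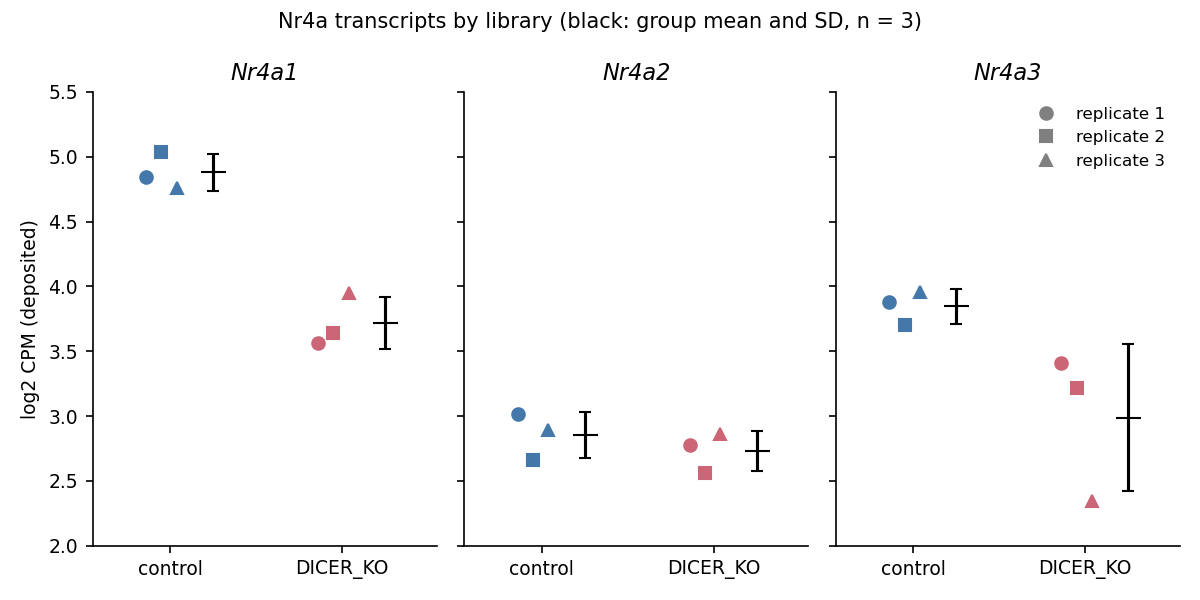
Deposited log2 CPM (vertical axis) of the 3 Nr4a genes in the control (blue) and DICER_KO (red) libraries; marker shape gives the replicate, and the black line and bar give the group mean and SD (n = 3). Groups are separate for Nr4a1 and Nr4a3 and overlap for Nr4a2, and DICER_KO replicate 3 is the highest DICER_KO library for Nr4a1 and the lowest for Nr4a3.

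Every DICER_KO library lay below every control for 2 of 3 members, against 9.81% of genes tested with that order and 10.4% with the opposite order. The SD between libraries is set here beside the SD that counting alone gives, as a description. For Nr4a1 the control SD of 2.96 CPM compares with 1.13 CPM from counting alone, and for Nr4a3 in DICER_KO the SD of 2.88 CPM compares with 0.549 CPM. For Nr4a2 these were 0.876 against 0.561 CPM in controls and 0.696 against 0.524 CPM in DICER_KO. In DICER_KO replicate 3 Nr4a3 stood at 5.06 CPM with an exact Poisson 95% interval of 4.40 to 5.78 CPM, apart from the interval of 8.10 to 10.6 CPM in replicate 2. These intervals cover counting error only.

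**Figure D2:**
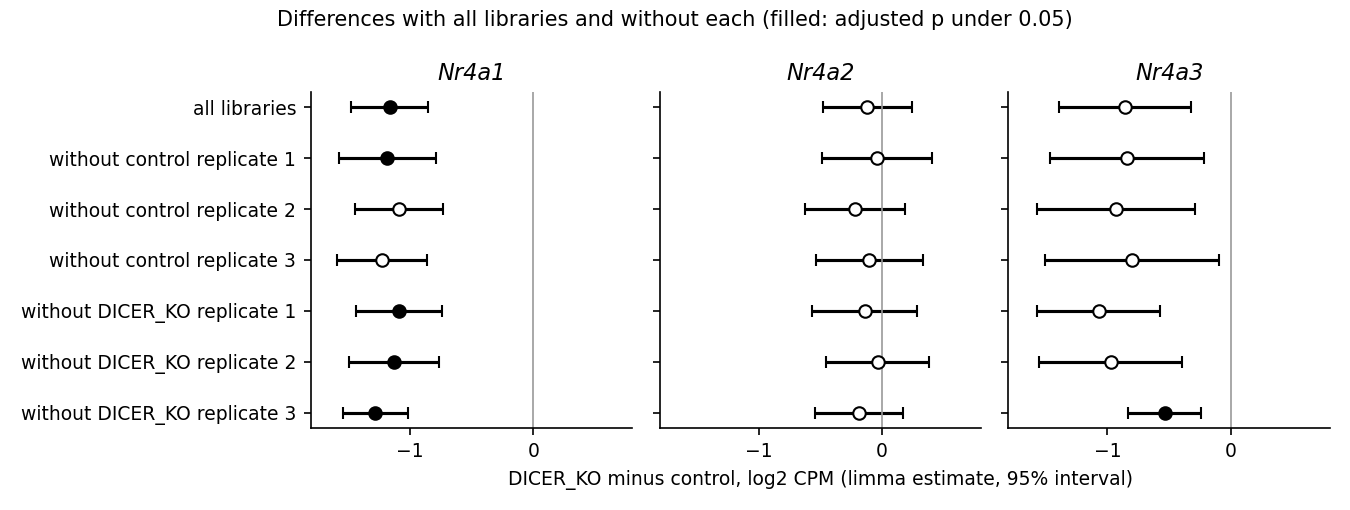
Limma estimates of DICER_KO minus control in log2 CPM (horizontal axis, bars: 95% interval) with all 6 libraries and with each library left out; filled points have an adjusted p under 0.05. Nr4a1 estimates stay between -1.28 and -1.09, those of Nr4a2 between -0.22 and -0.04, and those of Nr4a3 between -1.07 and -0.54.

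Levels of the 3 genes can be set side by side per length, as reads per kilobase of exon scaled to library size (RPKM), with 3509, 4059 and 5987 exonic bases for Nr4a1, Nr4a2 and Nr4a3. In controls the order of RPKM was Nr4a1 at 8.42 ± 0.84, Nr4a3 at 2.41 ± 0.22 and Nr4a2 at 1.79 ± 0.22 (SD, n = 3), and no 2 of these genes overlapped in their control libraries. In DICER_KO Nr4a1 was still the highest at 3.77 ± 0.55 RPKM, but Nr4a2 at 1.64 ± 0.17 and Nr4a3 at 1.39 ± 0.48 overlapped. Nr4a3 exceeded Nr4a2 in DICER_KO replicates 1 and 2 and was below it in replicate 3, at 0.844 against 1.79 RPKM.

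Summed over the family, controls held 12.7, 13.1 and 12.1 RPKM and DICER_KO held 6.84, 6.56 and 7.04 RPKM. The totals did not overlap, and DICER_KO replicate 3 lay with the other DICER_KO libraries, since its higher Nr4a1 stood beside a lower Nr4a3. Nr4a1 made up 64.8, 71.5 and 63.6% of the family total in controls and 49.4, 54.1 and 62.5% in DICER_KO. The Nr4a2 share was 14.2 ± 2.02% in controls and 24.1 ± 1.69% in DICER_KO, and the Nr4a3 share was 19.1 ± 2.41% and 20.5 ± 7.45% (SD, n = 3).

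Whether the members changed unequally was asked of their ratios within each library. The log2 ratio of Nr4a1 to Nr4a2, per length, was 2.05, 2.59 and 2.08 in controls and 1.00, 1.29 and 1.30 in DICER_KO, a difference of -1.04 with no overlap. The log2 ratio of Nr4a1 to Nr4a3 ran from 1.57 to 2.11 in controls and was 0.93, 1.20 and 2.38 in DICER_KO, so those groups overlapped (difference -0.30). The log2 ratio of Nr4a2 to Nr4a3 was -0.31, -0.48 and -0.51 in controls and -0.07, -0.09 and 1.08 in DICER_KO. With 3 libraries against 3, the two-sided exact permutation test cannot go below 0.1, the value it gave for the family total, for the Nr4a1 and Nr4a2 shares and for both ratios to or of Nr4a2. Over these 7 comparisons the adjusted value was 0.14, and for Nr4a1 to Nr4a3 and the Nr4a3 share the exact permutation p was 0.6 and 0.9.

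**Figure D3:**
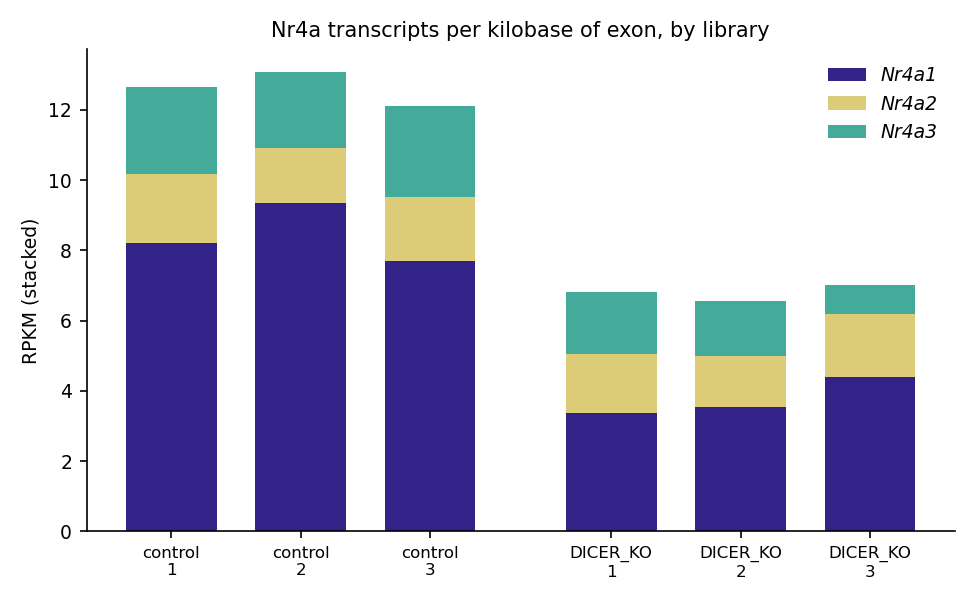
Stacked RPKM (vertical axis, from 0) of Nr4a1, Nr4a2 and Nr4a3 in each of the 6 libraries. Control totals are 12.1 to 13.1 and DICER_KO totals 6.56 to 7.04, and the Nr4a3 segment is smallest in DICER_KO replicate 3.

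Among the 31 nuclear receptor genes that entered the test, the 3 members included, Nr4a1 had the lowest difference. It ranked 14 by mean RPKM in controls and 20 in DICER_KO. Nr4a3 ranked 22 and 26, Nr4a2 25 and 24. Of the 28 other receptors, 0 were called in either direction by limma or limma-voom with all libraries (5 had an unadjusted p under 0.05, as did 15.8% of all genes tested), and their median difference was 0.02, the same as over all genes. Every DICER_KO library lay below the controls for Vdr, Nr1d1 and Rarb, and above them for Rorb and Nr6a1. These 3 below and 2 above of 28 are near the shares of all genes with those orders, 9.81% and 10.4%. Rorb and Nr6a1 were named after their values were seen.

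The receptors with the smallest p after Nr4a1 were those for vitamin D, heme and retinoic acid. Vdr, the vitamin D receptor, read 4.70, 4.50 and 4.66 log2 CPM in controls and 4.19, 3.88 and 3.87 in DICER_KO (difference -0.64, limma adjusted p = 0.0718). Nr1d1, the heme-binding clock repressor, differed by -0.61 (adjusted p = 0.112) and Rarb, a retinoic acid receptor, by -0.96 (adjusted p = 0.112). Pparg, the master regulator of adipogenesis and itself 1 of the 12 adipocyte markers, read 6.25 to 6.35 log2 CPM in controls and 6.88, 6.86 and 6.21 in DICER_KO. With DICER_KO replicate 3 left out, 3 of the 28 were called lower (Vdr, Nr1d1 and Rarb) and 7 higher, Pparg among them, where 7.22% and 12.5% of all genes were.

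**Figure D4:**
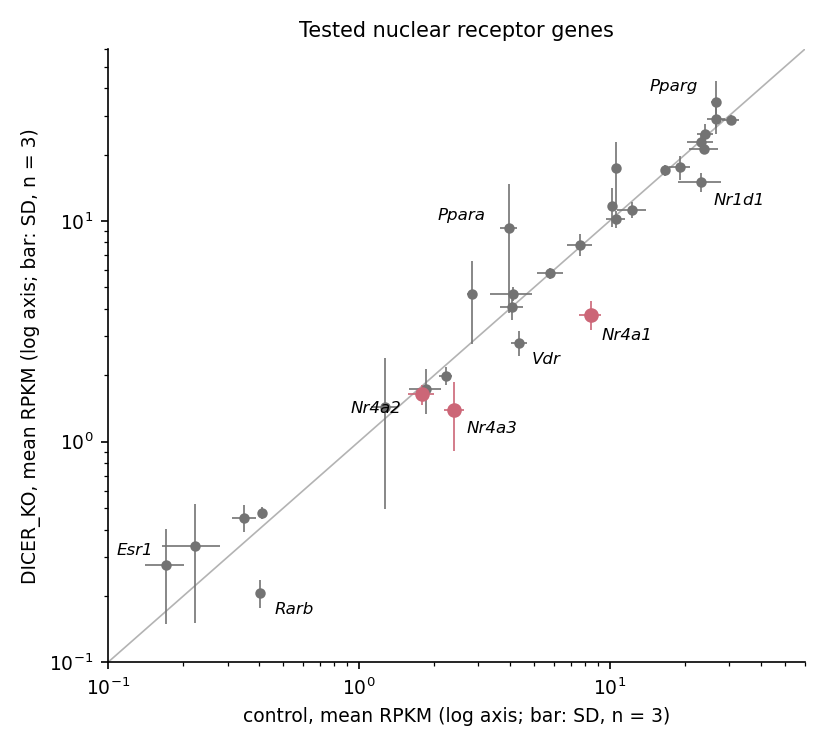
Mean RPKM of 31 nuclear receptor genes in controls (horizontal) and DICER_KO (vertical), both on log axes, with SD bars (n = 3) and the line of equal levels; Nr4a members are red. Nr4a1 lies at 8.42 against 3.77 RPKM, Nr4a3 at 2.41 against 1.39, and Nr4a2 close to the line.

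The pathway upstream of Nr4a induction was described from a list of receptors, cyclases, kinase subunits, CREB cofactors and phosphodiesterases. Of 29 listed genes 21 were tested, and 0 were called in either direction by limma or limma-voom. An unadjusted limma p under 0.05 was found for 3 of the 21, where 15.8% of all genes had one. The median difference was -0.09 against 0.02 over all genes. Prkar2b, the regulatory subunit of protein kinase A typical of fat, read 7.62 to 7.87 log2 CPM in controls and 8.50, 8.41 and 7.78 in DICER_KO (difference 0.50, limma adjusted p = 0.236). Pde8a, a cyclic AMP phosphodiesterase, differed by 0.24 (adjusted p = 0.290) and Adcy3, an adenylyl cyclase, by -0.29 (adjusted p = 0.298). Pde8a and Prkacb, a catalytic subunit of the kinase named after its values were seen, were above the controls in each DICER_KO library, 2 of 21 where 10.4% of all genes had that order. In the fit without DICER_KO replicate 3, 1 of the 21 was called lower and 5 higher, where 7.22% and 12.5% of all genes were; the first was Prkar1b and the others Adrb3, Adcy5, Prkar2b, Sik2 and Pde3b, all but Prkar2b named after their values were seen.

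Of 18 other rapid targets of CREB that were tested, 1 was called lower and 0 were called higher, where 0.288% and 0.149% of all genes were. A negative difference was measured for 15 of the 18 and an unadjusted p under 0.05 for 12, where 15.8% of all genes had one, and the median difference was -0.45 against 0.02 over all genes. In 12 of the 18 every DICER_KO library lay below the controls, where 9.81% of all genes had that order. The gene called was Atf3, a stress and cyclic AMP response factor, at 6.39, 6.28 and 6.23 log2 CPM in controls and 5.28, 5.33 and 5.68 in DICER_KO. It fell by 0.87 (SE 0.12, limma adjusted p = 0.0139), and the call was lost when any 1 control or DICER_KO replicate 2 was left out (adjusted p 0.0524 to 0.0949), and also without the intensity trend (adjusted p = 0.0702).

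Members of this list differed in what replicate 3 did. Sik1, the salt-inducible kinase that feeds back on CRTC, read 5.33, 5.78 and 5.39 log2 CPM in controls and 4.65, 4.98 and 4.94 in DICER_KO (difference -0.65, limma adjusted p = 0.0923). The clock gene Per1 differed by -0.52 (adjusted p = 0.112), with all DICER_KO libraries below the controls. Fos, an AP-1 subunit, read 3.92 to 4.03 in controls and 3.37, 3.32 and 3.79 in DICER_KO (difference -0.48, adjusted p = 0.201). Its relative Fosb was at 0.35 and 0.42 in DICER_KO replicates 1 and 2, but at 1.30 in replicate 3, inside the control range of 1.24 to 1.53 (difference -0.66, adjusted p = 0.299).

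Crem and Ppargc1a, both textbook CREB targets, did not share the order of Nr4a1. Crem, whose short product ICER represses CREB sites, read 3.60 to 3.83 log2 CPM in controls and 3.93, 3.80 and 3.50 in DICER_KO (difference 0.03, limma adjusted p = 0.927); the sign changed with limma-voom (-0.0030) and without control replicate 2 or DICER_KO replicate 1. Ppargc1a, the coactivator of mitochondrial genes, read 3.04 to 3.36 in controls, 4.48 and 4.49 in DICER_KO replicates 1 and 2, and 2.60 in replicate 3 (difference 0.63, adjusted p = 0.442). Without DICER_KO replicate 3 it rose by 1.26 (adjusted p = 1.7e-05), and 8 of the 18 were called lower and 1, Ppargc1a, higher, where 7.22% and 12.5% of all genes were. Nr4a1 and Ppargc1a thus lay on opposite sides of the controls in DICER_KO replicates 1 and 2.

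Immediate-early genes that answer mainly to growth factor and stress signals gave no call with all libraries. Of 15 tested, 12 had a negative difference, 0 were called in either direction by limma or limma-voom, and the median difference was -0.26. An unadjusted limma p under 0.05 was found for 6 of the 15, where 15.8% of all genes had one. Against the control mean the median lay at -0.40, -0.32 and 0.00 in DICER_KO replicates 1 to 3, where the CREB target list lay at -0.39, -0.33 and -0.54. The AP-1 subunit Jun differed by -0.39 (limma adjusted p = 0.116), Ier2 by -0.44 (adjusted p = 0.123) and Ier3 by -0.49 (adjusted p = 0.228). Jun, Ier2 and Jund, the last named after its values were seen, were below the controls in each DICER_KO library, 3 of 15 where 9.81% of all genes had that order. Leaving out DICER_KO replicate 3 gave 9 of the 15 called lower and 0 higher, where 7.22% and 12.5% of all genes were called.

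**Figure D5:**
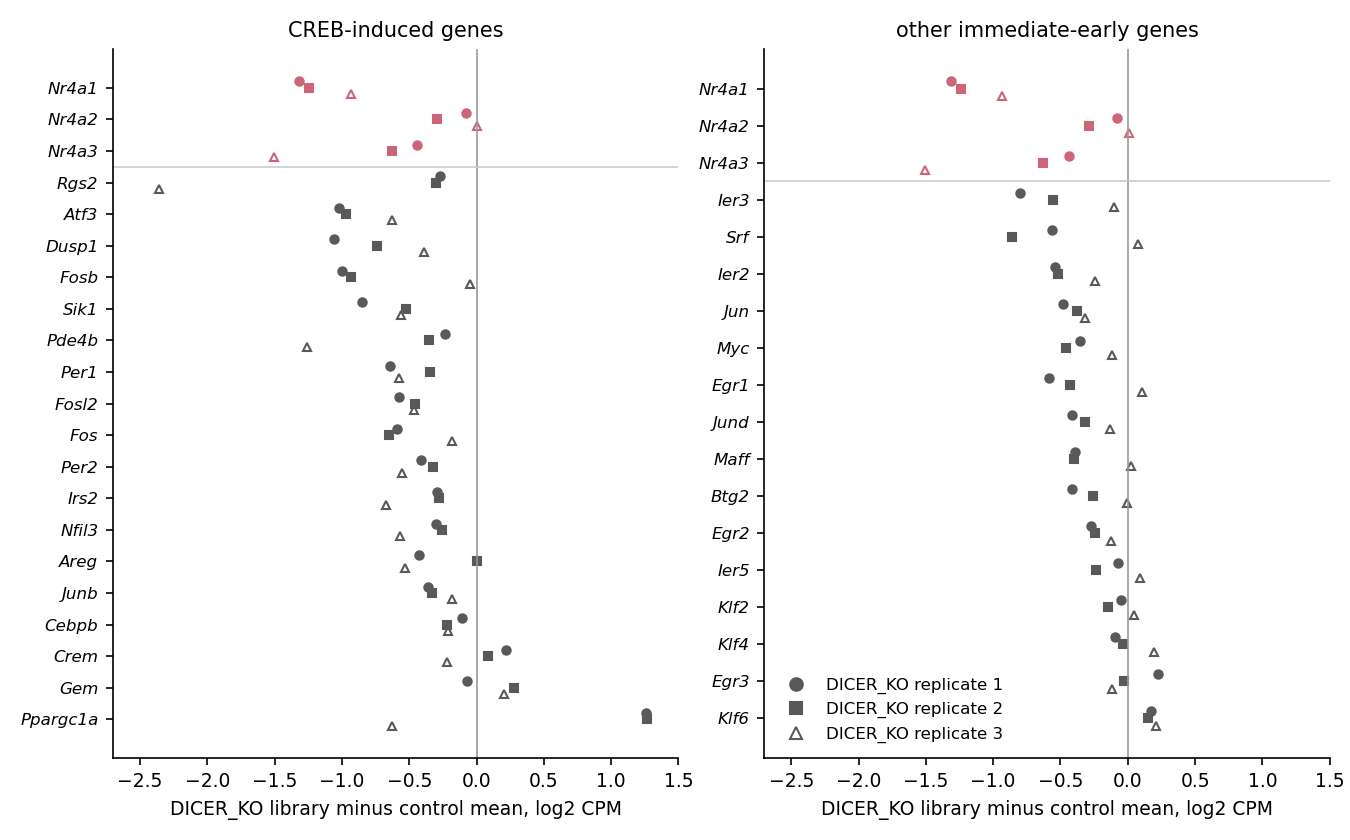
Each DICER_KO library minus the control mean in log2 CPM (horizontal axis) for the 3 Nr4a genes (red) and for 18 CREB-induced genes (left) and 15 other immediate-early genes (right), sorted by their mean difference; marker shape gives the replicate. Replicate 3 (open triangle) is the lowest for Nr4a3 and for several listed genes, among which Rgs2 and Pde4b lie furthest below 0. It is the closest to 0 for 6 of the 18 CREB-induced genes and for 11 of the 15 immediate-early genes.

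The half-site counts of these lists can be set beside those of the members. Of 14 CREB-induced genes with a start-site region listed, 12 held TGACG on either strand (85.7%), where the list was compiled for regulation by CREB. The share was 4 of 11 for the other immediate-early genes (36.4%) and 7 of 24 for the other nuclear receptors (29.2%). Nr4a2, whose groups overlapped, carried as many copies as Nr4a1 and Nr4a3.

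Partners and coregulators of Nr4a proteins gave no call with all libraries. Of 14 listed 10 were tested, 0 were called by limma or limma-voom, and their median difference was -0.01. An unadjusted limma p under 0.05 was found for 1 of the 10, where 15.8% of all genes had one. Rxra, the main retinoid X receptor partner in fat, read 7.04 to 7.25 log2 CPM in controls and 7.46, 7.37 and 7.05 in DICER_KO (difference 0.12, limma adjusted p = 0.641). The corepressor gene Ncor1 differed by 0.30 (adjusted p = 0.276), with all DICER_KO libraries above the controls. Bcl2, whose product Nr4a1 can bind at mitochondria, differed by 0.40 (adjusted p = 0.318), also above the controls in each DICER_KO library. These were 2 of 10 above, and 1 of 10 lay below, where 10.4% and 9.81% of all genes had those orders. With that replicate 3 of DICER_KO left out, Trim28 was called lower and Ncor1 and Ncoa1 higher, 1 and 2 of 10 where 7.22% and 12.5% of all genes were (Trim28 and Ncoa1 named after their values were seen).

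Genes reported in other tissues as Nr4a targets, in glucose use, lipid handling and uncoupling, gave no call with all libraries. Of 17 tested 0 were called by limma or limma-voom, 9 had a negative and 8 a positive difference, and the median was -0.13. An unadjusted limma p under 0.05 was found for 4 of the 17, where 15.8% of all genes had one. Every DICER_KO library lay below the controls for 5 of the 17, Gata2 and Spp1 among them, and above them for 0. Over all genes those orders had shares of 9.81% and 10.4%. Gata2, a transcription factor that holds back adipogenesis, read 3.86 to 3.89 log2 CPM in controls and 3.18, 3.13 and 3.80 in DICER_KO (difference -0.50, limma adjusted p = 0.242). Ucp2, a mitochondrial carrier, read 3.65 to 4.04 in controls and 5.37, 5.20 and 3.79 in DICER_KO (difference 0.90, adjusted p = 0.258), and the secreted phosphoprotein gene Spp1 differed by -0.52 (adjusted p = 0.280). Ucp1, the uncoupling protein of thermogenic fat, differed by -0.23 (adjusted p = 0.814), with 0.76 in replicate 3 against 3.02 and 2.65. The fit without DICER_KO replicate 3 called 6 higher and 1, Gata2, lower, where 12.5% and 7.22% of all genes were. The 6 were Slc2a4, Lpin1, Ucp2, Adipor2, Srebf1 and Fabp4, all but Ucp2 named after their values were seen. Slc2a4 and Fabp4 are also adipocyte markers, and that fit called 9 of the 12 adipocyte markers higher. Adipoq, the adiponectin gene and 1 of the adipocyte markers, was above the controls in DICER_KO replicates 1 and 2 and below them in replicate 3, at 8.71, 8.74 and 6.41 against 7.55 to 7.67 log2 CPM in controls.

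Genes with the pattern most like each member were ranked by the root mean square difference in log2 CPM over the 6 libraries, after each gene was centred on its own mean. The ranking held 8252 genes with a mean of at least 5 CPM and used the values that also give the difference between groups, so it is a description. Nearest to Nr4a1 were Il4ra (0.14), a receptor chain for interleukin 4, the matrix gene Abi3bp (0.15), Atf3 (0.17), the transglutaminase gene Tgm1 (0.18) and the vasopressin receptor gene Avpr1a (0.18), where the median gene lay at 0.63. Il4ra read 8.27, 8.37 and 8.12 log2 CPM in controls and 7.29, 7.14 and 7.57 in DICER_KO. Nr4a3 stood at rank 1096 and Nr4a2 at rank 2495 from Nr4a1, so neither relative was among its near neighbours.

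Nearest to Nr4a3 were Lpl (0.11), the lipoprotein lipase gene, Pde4b (0.14), the phosphodiesterase induced by cyclic AMP, the matrix genes Spon2 (0.14) and Ccdc80 (0.16), and the aminopeptidase gene Enpep (0.17). Lpl read 11.37, 11.12 and 11.50 log2 CPM in controls and 11.11, 10.94 and 9.88 in DICER_KO, so it shares with Nr4a3 the low value in DICER_KO replicate 3. Pde4b read 4.25 to 4.32 in controls and 4.05, 3.92 and 3.02 in DICER_KO. Nearest to Nr4a2 were Ccdc86 (0.039), Ltv1 (0.043), a factor of small ribosomal subunit assembly, Dis3 (0.044), the exosome nuclease, Rpap2 (0.045), a phosphatase of RNA polymerase II, and Rrp8 (0.046). For these 5 the groups overlapped, with differences from -0.15 to -0.06.

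Because the deletion targets the enzyme that makes microRNAs, the longest annotated 3' UTR of each member (GENCODE M21) was searched for the 7 bases opposite a seed. MicroRNAs themselves were not measured. Of 16 families listed 14 had a mature sequence in the RefSeq table (miR-143 and miR-145 had none). Nr4a1, with 543 bases of 3' UTR, held a match to 1 family, Nr4a2, with 1326 bases, to 4, and Nr4a3, with 3095 bases, to 1. The mature sequences of the 5 families are shown with the seed (bases 2 to 8) in capitals, since they are the ones whose letters occur in a member.
miR-17-5p: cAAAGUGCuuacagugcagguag
miR-21a-5p: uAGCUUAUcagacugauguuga
miR-30a-5p: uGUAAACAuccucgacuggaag
miR-34a-5p: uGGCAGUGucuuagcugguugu
miR-132-3p: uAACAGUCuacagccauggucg

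The matching stretches, with the 7 bases opposite the seed in capitals, lie at chr15:101274524-101274545 (plus strand) for Nr4a1 and, on the minus strand, at chr2:57107086-57107107, chr2:57106856-57106877, chr2:57106944-57106965 and chr2:57107136-57107157 for Nr4a2 in the order below. The Nr4a3 stretches lie at chr4:48083629-48083650 and chr4:48084988-48085009 on the plus strand.
Nr4a1 with miR-21: ccactctgttgtaaATAAGCTg
Nr4a2 with miR-17/20: ctggaaattactgaGCACTTTg
Nr4a2 with miR-30: aaagacaattttaaTGTTTACa
Nr4a2 with miR-34: cacatgagatgagtCACTGCCt
Nr4a2 with miR-132: atgcagcagcttttGACTGTTt
Nr4a3 with miR-17/20: aaattgctgacaaaGCACTTTt
Nr4a3 with miR-17/20: ggcagcactgtttaGCACTTTg

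The miR-30 stretch of Nr4a2 is the only one of the 7 followed by an A, the base that lengthens a match to an 8mer. Among 3' UTRs of 0.8 to 1.25 times the length of Nr4a2, 12.1% held the miR-17/20 letters, 13.3% those of miR-30, 14.7% those of miR-34 and 10.6% those of miR-132. The miR-21 letters occurred in 2.60% of 3' UTRs of like length to Nr4a1, and those of miR-17/20 in 24.8% of like length to Nr4a3. Summed over the 14 families searched, the shares at like length come to 0.726 families for Nr4a1, 1.66 for Nr4a2 and 3.31 for Nr4a3, beside the 1, 4 and 1 found. Nr4a2 read -0.08, -0.29 and 0.01 against the control mean in DICER_KO replicates 1 to 3, and none of the 3 members was above the control range in any DICER_KO library. A match is a description, and its part in these levels was not tested.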

How the data were processed

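The deposited values are log2 CPM, reads scaled to library size on a log2 scale, which the authors computed for each of 6 libraries; 0 columns belong to other samples. Tools named in the submitters' processing notes are HISAT2, featureCounts, edgeR, Trimmomatic and FastQC, with the builds mm10 and GRCm38, and the series' design text names TMM scaling. Versions and strand are not given in the sources used here. Each value matched a whole number of reads plus 0.5 over an implied library size (100% whole within 0.01 reads), and those reads gave the read counts, CPM intervals and RPKM. Of 13734 Entrez IDs, 13682 matched a symbol in RefSeq GRCm38.p6; exon lengths and 3' UTRs came from GENCODE M21 (GRCm38).

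The difference between groups was fitted with limma 3.58.1 (R 4.3.3), with an intensity trend and the group as the only term. A gene entered the fit if 3 or more libraries reached 1 CPM, which left 10054 genes. P-values are two-sided and were adjusted by the Benjamini-Hochberg method across these genes, with a threshold of 0.05. The test was checked on simulated data in which all libraries had the same spread. No simulated library stood apart as DICER_KO replicate 3 does, so the check does not cover that case. Quantities built from several members were compared by exact permutation over libraries. Alternatives changed the test, scaling, pseudocount, filter, trend, replicate term and libraries. Chi-square of reads between libraries of 1 group was 8.36 to 92.8 per degree of freedom, so no library was counted as a repeat of another.

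The members and lists were chosen with earlier results of these data known. Named genes were the members, up to 3 called genes a direction in each of 6 lists (or the 3 with the smallest p), 11 fixed genes, and the 5 genes with the pattern nearest to each member. Other steps used scipy 1.17.1, pandas 2.3.3, numpy 2.4.6 and matplotlib 3.10.9 under Python 3.11.15.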

Additional observations from a re-analysis of the deposited data

How the results depend on the processing

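Nr4a1 stayed lower in DICER_KO under every alternative run, at -1.18 to -1.11 with other scalings, filters, tests and pseudocounts. Its call was lost with a replicate block (-1.16, adjusted p = 0.109) and without control replicate 2 or 3, and it ran from -1.28 to -1.09 when single libraries were left out. Nr4a3 ran from -1.07 to -0.54 with libraries left out and was called only without DICER_KO replicate 3. Nr4a2 stayed between -0.22 and -0.04 and was never called. The Nr4a1 share and the log2 ratios kept their sign with the longest transcript and without each library. The ratio of Nr4a1 to Nr4a3 (-0.30) became -0.02 without DICER_KO replicate 1, -0.15 without DICER_KO replicate 2 or control replicate 2, and -0.74 without DICER_KO replicate 3. That of Nr4a2 to Nr4a3 (0.74) became 0.35 without DICER_KO replicate 3.

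Counts of genes higher and lower, 15 and 29 with all libraries, were 6 and 13 without the intensity trend, 0 and 2 with the replicate block (1434 genes at an unadjusted p under 0.05), and ran from 0 to 1257 and from 1 to 726 without single libraries. Deviations from the group means correlated at 0.20, -0.01 and -0.08 between same-numbered libraries over 10054 genes, and not every library correlated best with its own number. Chi-square of reads per degree of freedom was 85.5 and 92.8 between DICER_KO replicate 3 and replicates 1 and 2, against 8.36 between the latter. Replicate 3 thus weighs on all DICER_KO deviations, and the correlations cannot decide whether the numbers are pairs. The main fit did not take them as pairs. The other named genes kept direction and call in 507 results, became called in 20, lost the call in 35 and changed sign in 9. Sign changes were found for Crem (-0.0030 with limma-voom, -0.064 to 0.15 without single libraries), Adipoq (-0.054 to 1.11), Ucp1 (-0.67 to 0.47), Ltv1 (-0.20 to 0.032) and Rrp8 (-0.14 to 0.020). Atf3 lost its call with the replicate block (adjusted p = 0.145). The cause was not tested. At 120 to 307 reads a library, Nr4a2 is the member whose precision depth limits most.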
